A study of Mus musculus with 23 samples.

Results

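Mobp, Ermn, Cldn11, Apod, Opalin, Gjb1 and Aspa are 7 genes of late myelin and of the mature oligodendrocyte, out of 35385 gene symbols in the count tables. They were followed through every library of a mouse study on the transcription factor SOX6. The genes were chosen by values already known in these data, above all the change between SOX6-targeted and control cells in differentiation medium, so that contrast is given for them as a description with no test. The oligodendrocyte progenitor cells (OPCs) derive from mouse epiblast stem cells of the lines EpiSC5 (strain 129SvEv) and 129O1 (strain 129S1/SvImJ), and purified by flow sorting for CD140a and NG2. The labels do not say which line each library came from. Lentivirus (CRISPRv2) then brought in Cas9 with a non-targeting guide or with 1 of 2 guides against Sox6, and puromycin (500 ng/mL, 96 h) left the infected cells. All cultures with a guide, controls included, thus carry Cas9, a guide and the selection. They are populations selected for infection, not clones, and targeted and control cells came from 1 original batch of OPCs. The cells were kept for 60 h either in growth medium with bFGF and PDGFA (OPCs: 3 control, 2 guide 1 and 3 guide 2 libraries) or in a differentiation-permissive medium with noggin, IGF-1, cyclic AMP and NT3 but without the thyroid hormone T3 (called OLs here: 3 control, 3 guide 1 and 3 guide 2 libraries). A separate set of 3 libraries of OPCs and 3 of O1+ oligodendrocytes had been sorted with magnetic beads and carried no guide. The OL cultures of the SOX6 experiment were not sorted. Whether libraries of the same group were grown apart is not stated, so each p-value reflects library-to-library spread, which may be technical.

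Oligodendrocytes differentiate in steps. A progenitor leaves the cell cycle, becomes a newly formed oligodendrocyte, and only later makes the lipids and proteins that compact and seal the myelin sheath. SOX6 is a SOXD protein, an HMG box factor that binds short sequences, of which ACAAAG is one, ACAATG another and AACAAT the last searched here, and has no activation domain of its own. In OPCs it is known for holding back terminal differentiation, often against the related SOXE factor SOX10.

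Mobp encodes a small basic protein of compact central myelin. Ermn encodes ermin, an actin-binding protein of the myelinating oligodendrocyte. Cldn11 encodes the claudin of the tight junction strands between myelin layers. Opalin encodes a membrane glycoprotein of oligodendrocytes, and Gjb1 a connexin of the gap junctions of myelinating glia. Apod encodes apolipoprotein D, a secreted lipid carrier. Aspa encodes aspartoacylase, which splits N-acetylaspartate into acetate and aspartate.

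In GRCm38 (mm10) coordinates of GENCODE M21, the genes lie apart on 7 chromosomes. Mobp is at chr9:120149707-120181484 on the plus strand and Ermn at chr2:58045113-58052864 on the minus strand. Cldn11 is at chr3:31149920-31164324 (plus), Apod at chr16:31296192-31314808 (minus) and Opalin at chr19:41061710-41077113 (minus). Gjb1 is at chrX:101376378-101385629 (plus) and Aspa at chr11:73304992-73329596 (minus). The library kit does not mark strand, and the last 748 bases of Ermn overlap the end of Galnt5 on the opposite strand. Galnt5 had 0 or 1 counts in each of the 17 libraries of the SOX6 experiment. Mobp shares 2447 bases with Gm38642 on the same strand.

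Because 5 of the 7 genes stood higher in targeted OLs, the sequence before their starts is shown for the 2 that stood highest and for Opalin, which did not. The 3 motifs above were searched on both strands in the 250 bases before each RefSeq start (GRCm38.p6), where all 7 genes had an entry. AACAAT and ACAATG share letters and can overlap. In the sequences below, 5′ to 3′ on the gene's strand, capitals mark a match to one of the 3 motifs or to its reverse complement. They cover chr9:120149492-120149706 for Mobp (215 bases, stopping at its first annotated exon), chr2:58052865-58053114 for Ermn and chr19:41077114-41077363 for Opalin.
Mobp: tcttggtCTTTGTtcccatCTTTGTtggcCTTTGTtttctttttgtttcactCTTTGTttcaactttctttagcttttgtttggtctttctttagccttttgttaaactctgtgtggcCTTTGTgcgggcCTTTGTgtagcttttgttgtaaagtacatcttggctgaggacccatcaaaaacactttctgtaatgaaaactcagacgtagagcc
Ermn: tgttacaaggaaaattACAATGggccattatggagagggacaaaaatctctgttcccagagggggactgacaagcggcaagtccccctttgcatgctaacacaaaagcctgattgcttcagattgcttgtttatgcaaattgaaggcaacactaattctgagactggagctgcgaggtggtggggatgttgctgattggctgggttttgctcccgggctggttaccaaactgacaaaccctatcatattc
Opalin: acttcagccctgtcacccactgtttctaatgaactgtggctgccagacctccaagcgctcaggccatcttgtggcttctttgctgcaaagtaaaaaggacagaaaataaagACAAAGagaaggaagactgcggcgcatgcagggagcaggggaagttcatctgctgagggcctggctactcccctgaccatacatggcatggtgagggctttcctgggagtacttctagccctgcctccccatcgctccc
The Mobp sequence holds CTTTGT, the reverse of ACAAAG, 6 times, starting at positions -243, -231, -221, -198, -132 and -120 from the RefSeq start. Across 32851 promoter windows of the same length, 16.5% held ACAAAG on either strand, and the window of Mobp was the 1 window with as many as 6. That count was noticed in the scan and not looked for beforehand. Much of the stretch is made of close variants of CTTTGT, such as ttttgt. Ermn holds 1 ACAATG at -234, a motif in 10.7% of windows, and Opalin 1 ACAAAG at -139. Apod holds 1 ACAAAG at -84, and of the 4 windows of Gjb1 the first holds ACAAAG and AACAAT and the fourth ACAAAG and ACAATG. Aspa holds AACAAT at -249, a motif in 9.42% of windows, and Cldn11 has none of the 3 motifs in its window. At least 1 of the 3 motifs was in 29.6% of all windows. A match here is a description of letters and no measurement of binding.

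The libraries were deep enough for most of these genes in OLs and shallow for them in OPCs. Estimated counts summed to between 13967438 and 16958611 per OPC library and to between 13124580 and 18551822 per OL library. Sox6 RNA stood at 163 to 235 CPM (counts scaled to an adjusted library total) in control OPCs and 67.5 to 91.1 in targeted OPCs. In OLs it stood at 385 to 436 CPM in controls and 155 to 259 in targeted libraries. It was lower in both (log2 change of -1.32, SE 0.13, and -0.81, SE 0.14, with edgeR quasi-likelihood adjusted p = 0.00147 and 0.0095). Leaving out control A or B ended the OL call (adjusted p = 0.0591 and 0.0636). So did an offset for each library's transcript length (adjusted p = 0.106). Library B of guide 1 in OLs stood apart: its counts differed from libraries A and C by chi-square values of 103 and 100.0 per degree of freedom, against 6.55 between A and C. Its Sox6 level of 155 CPM was the lowest of the OLs. Results on OLs are therefore also given without it. Summed neuron markers (14 genes) stood at 282 to 716 TPM in guide 1 OLs, 727 to 774 TPM in guide 2 OLs and 844 to 852 TPM in controls. Most of the sum was Map2, at means of 387, 535 and 596 TPM in the same order. Map2 was not called between targeted and control OLs (edgeR quasi-likelihood adjusted p = 0.422). TPM is the authors' level scaled to transcript length and to the library.

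**Figure D1:**
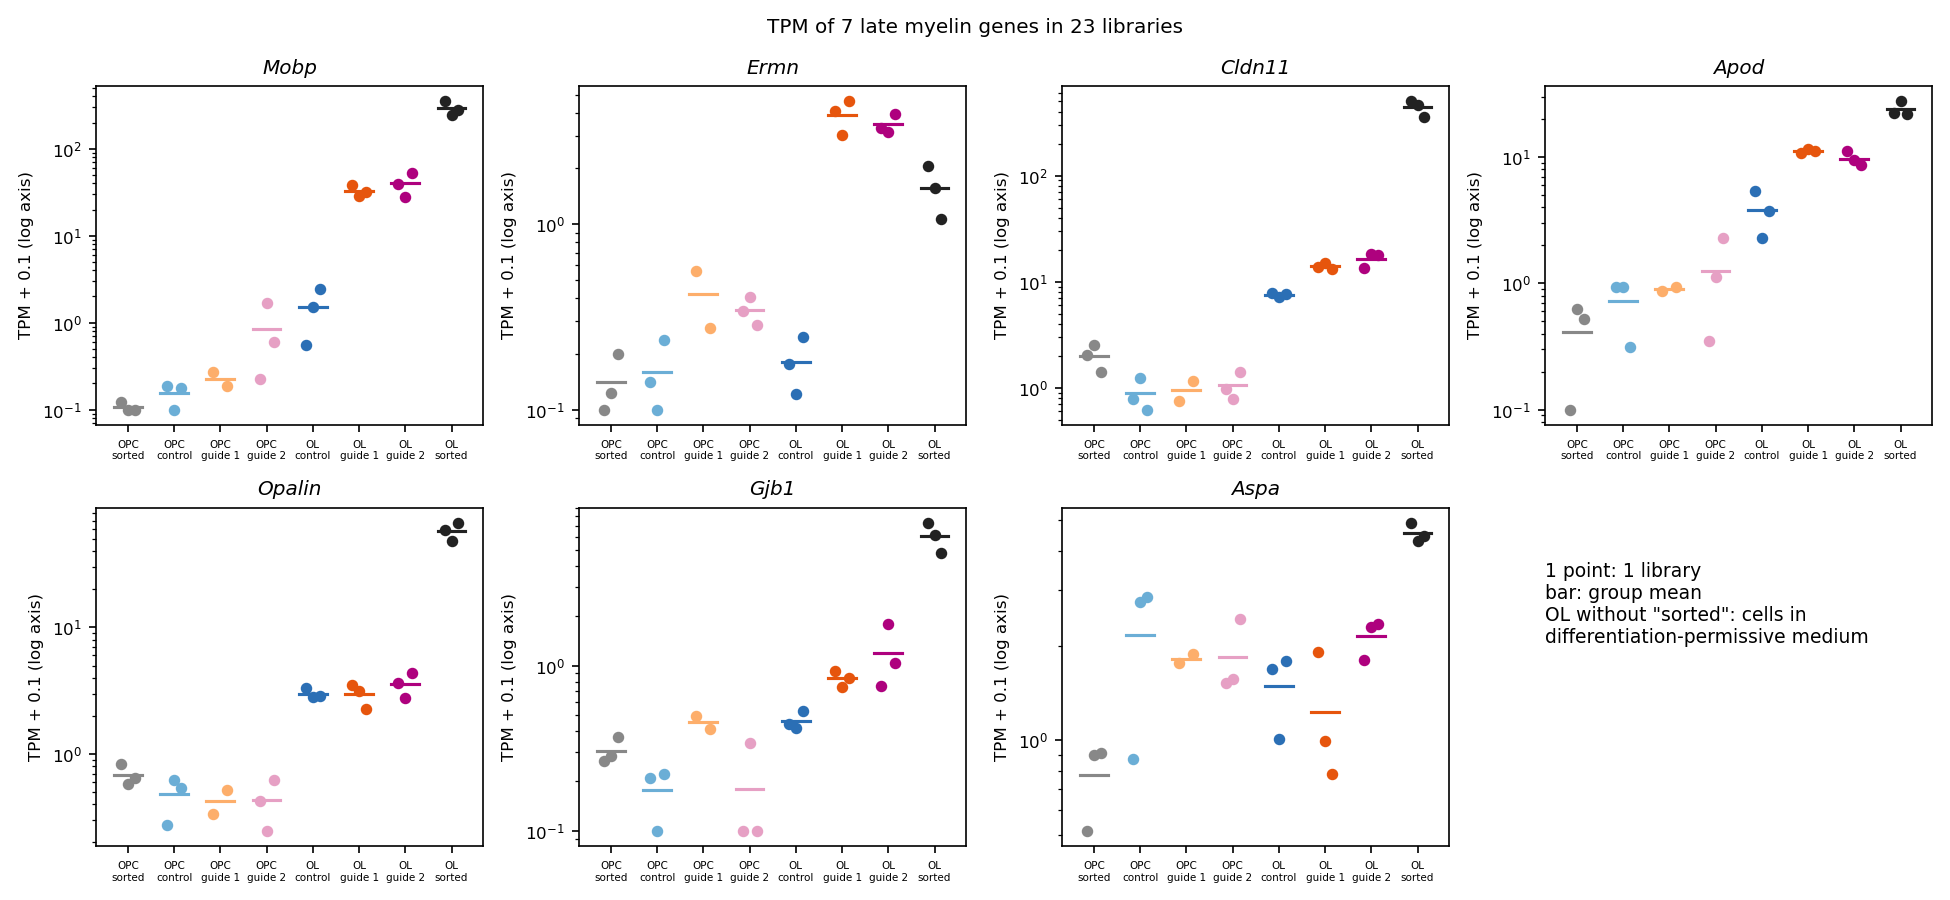
TPM plus 0.1 on a log axis for each of the 7 genes in the 23 libraries, by group; a point is a library and a bar the mean of the group. In the Mobp and Ermn panels the 6 targeted OL libraries lie far above the 3 control OL libraries, and in the Ermn panel they also lie above the 3 sorted OL libraries.

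In differentiation-permissive medium, Mobp and Ermn were nearly silent in control cells and far higher in SOX6-targeted cells. Ermn was still low there, at a mean of 3.58 TPM against 36.3 TPM for Mobp. Mobp was 48.4-fold and Ermn 46.5-fold higher, while Apod, Gjb1 and Cldn11 were between 2.19-fold and 2.89-fold higher and Opalin and Aspa overlapped with controls. These contrasts helped choose the 7 genes and are given with no test. Bulk RNA cannot tell more cells of a late type from more RNA per cell.

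Mobp stood at 0.964, 1.52 and 1.78 CPM in the control OL libraries A, B and C. It stood at 69.1, 63.3 and 63.1 CPM with guide 1 and at 76.4, 64.9 and 75.9 CPM with guide 2. All 6 targeted libraries were thus far above the highest control, and the libraries of the 2 guides overlapped. The fitted log2 change was 5.60 (SE 0.18), rank 8 from the top among 13447 genes tested. Counts rose from 17 to 25 per control library to 826 to 1401 per targeted library. The average transcript length that the authors' TPM and counts imply for Mobp differed 2.84-fold between OL libraries, so the size depends on the scale: the ratio of mean TPM was 25.8. With that length as an offset the log2 change was 5.02.

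Ermn separated control from targeted cells in the same way. Its estimated counts were 4, 1 and 6 in the control OL libraries, 194, 174 and 180 with guide 1, and 174, 173 and 199 with guide 2. In CPM that is 0.0629 to 0.43 in controls and 9.52 to 13.7 in targeted libraries, with no overlap. The fitted log2 change was 5.54 (SE 0.40), rank 9, and the implied transcript length differed by 1.01-fold at most. In the authors' deposited table, coded as control over targeted, the log2 values were -5.60 for Ermn and -4.90 for Mobp.

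Cldn11 stood at 10.9, 10.1 and 10.6 CPM in control OLs, at 19.7, 27.9 and 18.9 CPM with guide 1 and at 19.1, 27.7 and 25.3 CPM with guide 2. The 6 targeted libraries all lay above the 3 controls. The fitted log2 change was 1.13 (SE 0.17), and 1.02 without library B of guide 1, which held the highest value.

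Apod stood at 4.62, 2.16 and 2.85 CPM in control OLs, at 8.13, 13.8 and 9.27 CPM with guide 1 and at 9.28, 8.17 and 7.55 CPM with guide 2. Again each targeted library was above each control, with the highest value in library B of guide 1. The log2 change was 1.53 (SE 0.29), and 1.39 without that library.

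Gjb1 was rare everywhere in the experiment. It had 7, 6 and 7 counts in control OLs, 15, 15 and 11 with guide 1 and 14, 37 and 19 with guide 2. The ranges did not overlap in CPM either (0.377 to 0.501 against 0.764 to 2.11), and the log2 change was 1.36 (SE 0.43). Over all genes tested in OLs, every targeted library was above every control in 8.7%. It was so in 5 of the 7 members, a count that the choice of the genes favours. Of these, Ermn and Gjb1 passed the filter on low counts only through targeted libraries, so the 2 shares are not like for like. By edgeR's quasi-likelihood test, 6.47% of the genes outside the set were called in OLs (adjusted p under 0.05).

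The other two members did not separate the groups. Opalin stood at 4.86, 3.90 and 3.94 CPM in controls, 4.81, 5.72 and 3.36 CPM with guide 1 and 4.96, 4.00 and 6.09 CPM with guide 2 (log2 change of 0.19, SE 0.23). Aspa stood at 1.73, 0.503 and 1.72 CPM in controls, 1.59, 1.73 and 0.992 CPM with guide 1 and 2.29, 1.31 and 1.44 CPM with guide 2 (log2 change of 0.24, SE 0.45). The median log2 change of the 7 members was 1.36, against -0.00078 over all genes tested. The members were chosen with this contrast known, which favours a higher median, so the 2 values are a description.

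None of the 7 genes was called between guide 2 and guide 1 in OLs, a contrast that leaves out the controls (edgeR quasi-likelihood adjusted p of 0.704 to 0.877). The differences ran from a log2 of -0.32 (SE 0.31) for Apod to 0.52 (SE 0.45) for Gjb1. For Mobp the difference was 0.15 (SE 0.14) and for Ermn -0.27 (SE 0.31). Of all 13447 genes, 0% were called between the guides, with 773 at an unadjusted p under 0.05 and 29 called by DESeq2. These intervals leave room for modest differences between the guides.

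**Figure D2:**
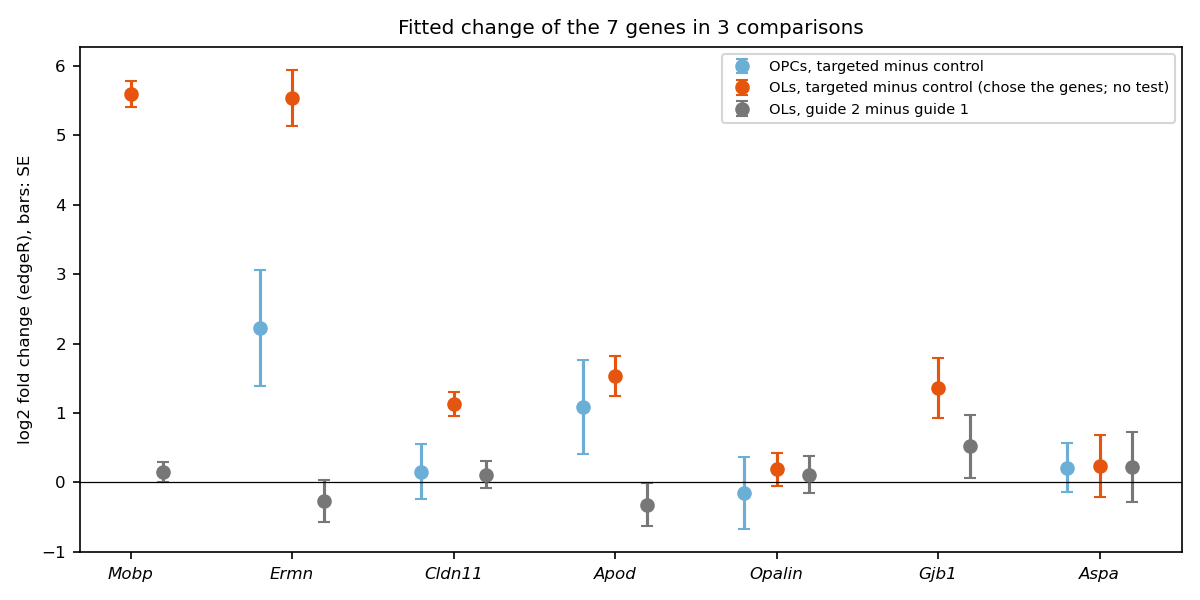
Fitted log2 fold change of each gene (points, edgeR) with its standard error (bars) in 3 comparisons: targeted minus control OPCs, targeted minus control OLs, and guide 2 minus guide 1 in OLs. Mobp and Ermn lie at 5.60 and 5.54 in OLs, and the guide difference lies between -0.32 and 0.52 for all 7 genes; Mobp and Gjb1 had too few counts in OPCs to be fitted.

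In OPCs in growth medium, before any change of medium, the members were at 3.06 CPM or less. Cldn11, Opalin and Aspa were tested between targeted and control cells, and none was called. Of all 13358 genes tested there, 3.59% were called, 1.95% higher and 1.63% lower (edgeR quasi-likelihood, adjusted p under 0.05). Mobp and Gjb1 failed the filter on low counts. Ermn and Apod passed it only through targeted libraries, so their changes are given with no test.

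The few counts of Mobp and Ermn did not overlap between the groups. Ermn had 2, 0 and 6 counts in control OPCs, 25 and 9 with guide 1 and 13, 14 and 10 with guide 2. The fitted log2 change was 2.23 (SE 0.84). Mobp had 3, 0 and 3 counts in control OPCs, 7.10 and 4 with guide 1 and 5, 7.83 and 20.9 with guide 2. In CPM, the highest control was 0.214 and the lowest targeted library 0.245. In TPM the groups overlapped for Mobp: control library A (0.0879) stood above library B of guide 1 (0.0868). Over all genes tested in OPCs, every targeted library was above every control by CPM in 6.39%, and among the 7 members in Mobp and Ermn. That share does not cover Mobp, which failed the filter, and Ermn entered it only through targeted libraries. The separation is therefore a description of few counts.

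The other members of the set overlapped in OPCs. Apod stood at 0.142 to 0.356 CPM in controls and 0.198 to 0.858 in targeted libraries (log2 change of 1.09, SE 0.68). Gjb1 had 8 and 6 counts with guide 1 and was at 0 in 2 of the 3 libraries of guide 2, with 2, 0 and 2 counts in controls. Cldn11 stood at 0.784 to 1.81 CPM in controls and 0.998 to 2.01 in targeted OPCs, with a log2 change of 0.15 (SE 0.40). Opalin and Aspa had changes of -0.15 (SE 0.52) and 0.21 (SE 0.36), both smaller than their errors.

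From growth to permissive medium, the fitted step of control cells is given as values only. The control OLs are part of the contrast that helped choose the genes. Mobp and Gjb1, which failed the count filter in OPCs, also entered this joint fit through the OL libraries. The log2 step was 3.30 (SE 0.58) for Mobp, 3.07 (SE 0.31) for Cldn11, 3.65 (SE 0.52) for Apod and 2.85 (SE 0.39) for Opalin. It was 2.12 (SE 0.98) for Gjb1, 0.35 (SE 0.79) for Ermn and -0.50 (SE 0.47) for Aspa. Of 14352 genes tested, 43% were called, 21.4% higher and 21.6% lower (edgeR quasi-likelihood over both tables). Astrocyte markers moved with the same step: 12 of 15 tested were higher and 0 lower, and their sum went from 820 to 958 TPM in control OPCs to 5742 to 6215 TPM in control OLs, led by Apoe. Of 18 progenitor genes 13 were higher and 4 lower, and of 14 neuron markers 6 and 1. Their part in the members' step was not tested. The 2 media come in separate tables, so stage and table cannot be told apart.

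In targeted cells, given as values only, the same step was 7.14 (SE 0.30) for Mobp and 3.67 (SE 0.43) for Ermn. It was 4.07 (SE 0.24) for Cldn11, 4.13 (SE 0.38) for Apod and 3.22 (SE 0.31) for Opalin. For Aspa it was -0.45 (SE 0.34), close to the value in control cells. Ermn is the member whose control cells stayed near the OPC level in the permissive medium (0.0812 ± 0.0626 TPM in OLs and 0.0592 ± 0.0702 in OPCs, SD, n = 3 each) while targeted cells did not.

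Sorted O1+ oligodendrocytes gave a reference level. Cldn11, at 1.30 to 2.42 TPM in sorted OPCs, passed the filter on low TPM (1 TPM in 3 libraries) in either cell type and was higher in sorted OLs by a log2 of 7.26 (SE 0.18; limma on log2(TPM + 1), adjusted p = 2.87e-07). Of 11902 genes tested, 61% were called, 26.6% higher and 34.4% lower. Mobp, Apod, Opalin, Gjb1 and Aspa were under 1 TPM in every sorted OPC library and passed the filter only through the sorted OLs, so their differences are given with no test. The median gene lay at -0.14 on this log2 scale. The differences were 8.17 (SE 0.14) for Mobp, 5.21 (SE 0.16) for Opalin, 4.26 (SE 0.21) for Apod, 2.51 (SE 0.19) for Gjb1 and 1.71 (SE 0.18) for Aspa. The log2(TPM + 1) scale understates the change of genes at a low level. Astrocyte markers also differed between the sorted cells: they summed to 671 to 743 TPM in sorted OPCs and 2171 to 4354 TPM in sorted OLs, and of 14 tested 6 were higher and 3 lower. Gfap, the intermediate filament of astrocytes, stood at 0.252 and 193 TPM, and S100b, which oligodendrocytes also express, at 22.9 and 989 TPM. Other astrocyte markers went the other way, from sorted OPCs to sorted OLs. Slc1a3 stood at 25.2 and 2.83 TPM, Sox9 at 47.1 and 16.9 TPM and Fgfr3 at 51.5 and 24.9 TPM. Their part in the members' levels in sorted OLs was not tested.

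Per transcript length, Cldn11 and Mobp were the most abundant members in sorted OLs. Cldn11 stood at 500, 465 and 354 TPM and Mobp at 350, 248 and 280 TPM. Opalin followed at 59.1, 48.5 and 66.9 TPM and Apod at 22.3, 27.6 and 22.0 TPM. The ranges of Cldn11 and Mobp did not overlap, though their nearest libraries were at 354 and 350 TPM. Gjb1 stood at 7.17, 6.01 and 4.68 TPM and Aspa at 4.80, 4.20 and 4.36 TPM, which overlap. Ermn was lowest, at 1.97, 1.47 and 0.964 TPM, and fell under the filter of 1 TPM in 3 libraries. In sorted OPCs it stood at 0 to 0.0984 TPM.

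The rank of the members was different in targeted OLs. Mobp led there at 36.3 ± 9.16 TPM (SD, n = 6), followed by Cldn11 at 15.1 ± 2.20, Apod at 10.4 ± 1.18, Ermn at 3.58 ± 0.621 and Opalin at 3.16. In control OLs Cldn11 led at 7.40 ± 0.334 TPM (SD, n = 3), with Apod at 3.73 ± 1.54, Opalin at 2.90 ± 0.269, Mobp at 1.40 ± 0.946, Aspa at 1.39 ± 0.422, Gjb1 at 0.365 ± 0.0590 and Ermn at 0.0812 ± 0.0626. The 7 genes together made up 14.6 to 18.6 TPM in control OLs, 62.2 to 72.6 TPM with guide 1, 64.9 to 89.8 TPM with guide 2 and 732 to 945 TPM in sorted OLs.

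Set against sorted OLs, 6 of the 7 members stayed well below the sorted level in targeted cells, and Ermn stood above it. Mobp went from 0.48% of the sorted level in control OLs (0.153% to 0.799% by library) to 12.4% in targeted OLs (9.57% to 17.9%). Ermn went from 5.54% (1.43% to 9.94%) to 244% (199% to 307%), so the Ermn TPM of each targeted culture was above the mean of the sorted OL libraries. The lowest targeted library, at 2.92 TPM, was also above the highest sorted library, at 1.97 TPM.

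Cldn11, which the sorted cells express most, reached 3.44% of the sorted level in targeted OLs and 1.68% in controls. Opalin stood at 5.44% and 4.98%, with overlapping libraries. Apod went from 15.6% to 43.4% and Gjb1 from 6.14% to 15.3%. Aspa, at 31.3% in controls and 35.7% in targeted cells, was already near that share in OPCs, where control libraries held 0.775 to 2.76 TPM against 4.2 to 4.8 TPM in sorted OLs.

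The members' median share was 5.54% in control and 15.3% in targeted OLs. Over the 4 members that reach 10 TPM in sorted OLs (Mobp, Cldn11, Apod and Opalin) it was 3.33% and 8.92%. For comparison with those 4, 596 other genes with 10 TPM or more in sorted OLs and 4 times or more their level in sorted OPCs had a median share of 25.7% in control and 21.2% in targeted OLs. In targeted cells 28 of them (4.7%) stood above 100%. The ratio of targeted to control TPM was over 2 in 19 of 593 of these genes (3.2%), and over 2 in 5 of the 7 members, which were chosen for it. The TPM tables were made separately and the OL cultures were not sorted. The labels do not give the time in culture of the sorted cells, so the shares are descriptions.

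**Figure D3:**
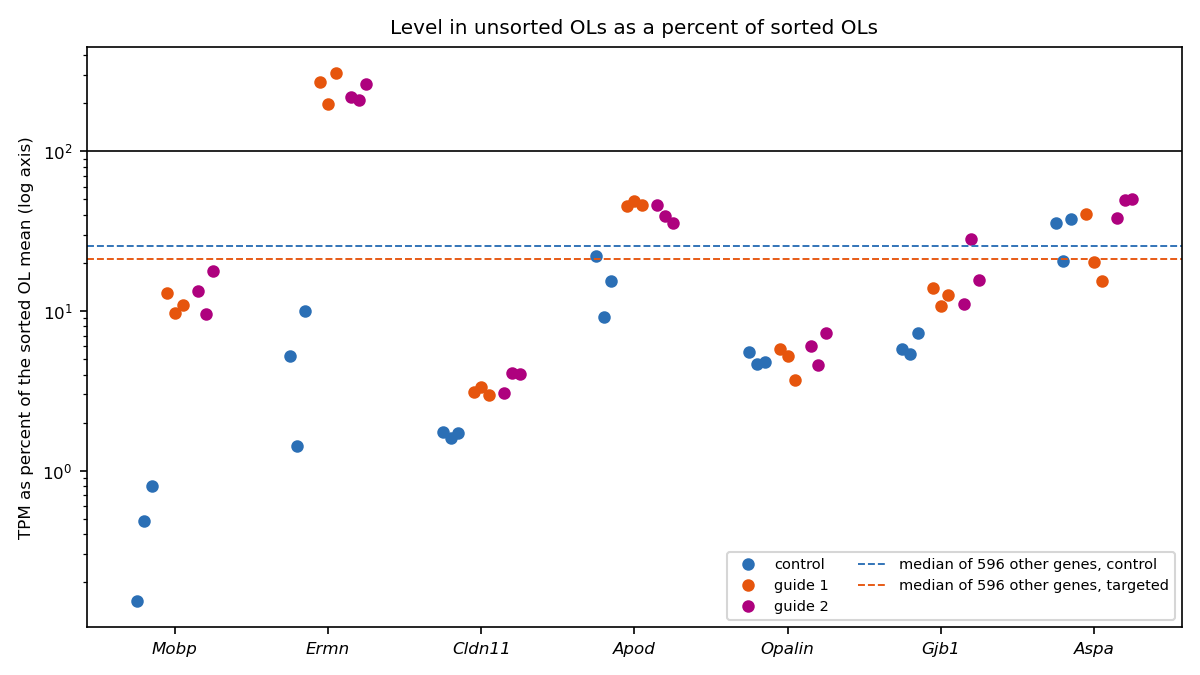
TPM of each gene in the 9 OL libraries of the SOX6 experiment as a percent of its mean in 3 sorted OL libraries (log axis; solid line at 100%, dashed lines at the medians of 596 other genes, 25.7% for control and 21.2% for targeted). Ermn lies above 100% in all 6 targeted libraries, while Cldn11 and Opalin stay under 10% in every library.

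The order of the 8 groups differed between members. For Mobp, the order of mean TPM was sorted OL (293 ± 52.6, SD, n = 3), guide 2 OL (39.8 ± 12.2), guide 1 OL (32.8 ± 4.96), control OL (1.40 ± 0.946) and then the OPC groups, all under 1 TPM. The 2 guides overlapped, as did control OLs with guide 2 OPCs (0.126 to 1.58 TPM). For Ermn the order was guide 1 OL (3.79 ± 0.806), guide 2 OL (3.37 ± 0.425), sorted OL (1.47 ± 0.502), guide 1 OPC (0.318 ± 0.202, n = 2) and guide 2 OPC (0.244 ± 0.0596). Control OLs came only after these, and the lowest library of guide 2 OPCs (0.188 TPM) was above the highest control OL (0.146 TPM). Each targeted OPC library in growth medium thus held more Ermn than each control library in permissive medium, on 9 to 25 counts against 1 to 6 and in tables made separately.

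For Cldn11 and Apod the order was sorted OL, the 2 targeted OL groups, control OL and then OPCs, and control OLs overlapped with no neighbour. For Opalin the 3 unsorted OL groups overlapped one another at 2.86 to 3.47 TPM. For Gjb1 control OLs (0.365 ± 0.0590) overlapped with guide 1 OPCs (0.356 ± 0.0576, n = 2). Aspa alone had control OPCs (2.06 ± 1.12) second after sorted OLs (4.45 ± 0.314), and all unsorted groups overlapped with their neighbours.

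Across the 23 libraries, Mobp, Cldn11, Apod, Opalin and Gjb1 followed the mean of the 7 members closely (Pearson r of 0.94 to 0.98 on log2(TPM + 1)). Ermn and Aspa did so less (0.70 each), and their correlation with each other was 0.21. Each member is itself part of that mean, which raises its r. Genes outside the set are not part of it. The non-member genes most like the mean of the set, among 10392 genes reaching 5 TPM in a group, included Pex5l (0.98), Dnajb2, Selenot and Gpr37 (0.97 each), and then Adamts4, Nipa1, Scarb2, Fam177a and Mapk8ip1. Gpr37, a receptor of oligodendrocytes, stood at 6.67 TPM in control OLs, 16.9 and 19.3 TPM with the guides and 50.1 TPM in sorted OLs, an order like that of Mobp. These points share libraries and fall into 3 separately made tables, and the correlations are descriptions.

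Most other myelin genes were not called in OLs. Of 20 genes of the myelin membrane and node, 16 were tested in OLs; 4 were higher and 1 was lower in targeted cells (edgeR quasi-likelihood, adjusted p under 0.05), against 3.1% and 3.37% of the 13440 non-member genes. The list's median log2 change was 0.24. Mbp, which encodes the major basic protein of myelin, rose from 647, 723 and 735 CPM in controls to 820 to 902 CPM with guide 1 and 966 to 1018 CPM with guide 2 (log2 change of 0.40, SE 0.07, adjusted p = 0.00844). The chemokine-like factor family gene Cmtm5 rose by 0.64 (SE 0.15, adjusted p = 0.0386). Fa2h, whose enzyme hydroxylates the fatty acids of myelin lipids, fell by 0.87 on the log2 scale (SE 0.08, adjusted p = 0.000392). Without control library A the Mbp call was lost (adjusted p = 0.0529). The Cmtm5 call was lost without any 1 library of the controls (adjusted p of 0.148 to 0.159) or of guide 2 (0.091 to 0.0963). It was also lost with transcript length as an offset (adjusted p = 0.0568). Without library B of guide 1, 5 of 17 tested genes of this list were higher and 7 were lower. Calls rose over all genes in that setting. With 13810 genes tested, 2333 non-member genes were called, 1145 of them higher, against 870 and 417 with the library kept. Every list count given without that library has this rise behind it.

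The mature oligodendrocyte list had calls in both directions. Of 30 genes 24 were tested in OLs, 3 were higher and 4 lower, with a median of 0.12. Pex5l, a partner of pacemaker channels, rose by 1.42 (SE 0.15, adjusted p = 0.00088). Adamts4, a secreted protease, rose by 0.98 (SE 0.10, adjusted p = 0.000836). Hhip, a hedgehog-binding protein, rose by 0.70 (SE 0.13, adjusted p = 0.0113). That call was lost without any 1 control library (adjusted p of 0.0595 to 0.0781) and with transcript length as an offset (0.0763). Anln, encoding the actin-binding anillin, fell by 0.63 (SE 0.11, adjusted p = 0.00932). That call was lost without control library A or C (adjusted p = 0.0753 and 0.0518) and with the same offset (0.0673). Without library B of guide 1, 5 of 25 were higher and 6 lower.

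Of 15 tested genes of the newly formed oligodendrocyte, 1 was higher, 6 were lower and 8 were not called in targeted OLs, with a median of -0.55 on the log2 scale; without library B of guide 1 it was 1 and 7. Neu4, a sialidase, had a change of -1.96 (SE 0.08, adjusted p = 7.6e-06), Gpr17, a receptor of the newly formed stage, -1.71 (SE 0.13, adjusted p = 0.000173), and Bcas1 -1.12 (SE 0.06, adjusted p = 2.65e-05). Lims2, which overlaps Gpr17, had a change of -1.86 (SE 0.10, adjusted p = 2.27e-05). Frmd4a, the 1 gene of this list that rose (0.76, SE 0.18, adjusted p = 0.043), lost its call without any 1 of 7 libraries (adjusted p of 0.0752 to 0.191). It also lost it with transcript length as an offset (adjusted p = 0.115). Among 15 transcription factors of myelin genes, 1 was higher and 3 were lower: Hes5, a Notch target, rose by 0.60 (SE 0.13, adjusted p = 0.0258) and Sox10 fell by 0.86 (SE 0.06, adjusted p = 0.000138). Nkx2-2 and Olig2 had changes of -0.37 and -0.27 (adjusted p = 0.0196 and 0.0419). The calls of Hes5, Nkx2-2 and Olig2 were each lost without any 1 control library (adjusted p of 0.075 to 0.221) and without libraries A or C of guide 2 (0.0569 to 0.1). With transcript length as an offset, Nkx2-2 and Olig2 lost theirs as well (edgeR adjusted p = 0.0964 and 0.06). Without library B of guide 1, 6 of the 15 factors were lower. Myrf, the activator of late myelin genes, had a change of -0.65 (SE 0.37, adjusted p = 0.419), and was called lower without library B of guide 1 (-0.44, adjusted p = 0.0239).

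Of 15 connexin genes other than Gjb1, 6 were tested in OLs, and 1 was higher and 2 were lower in targeted cells. Gjc3, which stood at 1074 TPM in sorted OLs, fell by 1.30 (SE 0.07, adjusted p = 1.88e-05). The neuronal connexin Gjd2 fell by 1.66 (SE 0.15, adjusted p = 0.000382). None of 8 tested claudin and tight junction genes and none of 11 tested genes of N-acetylaspartate and acetate use was called in OLs, the 2 lists that surround Cldn11 and Aspa. Without library B of guide 1, calls rose over all genes. The claudin list then had 1 gene higher and 1 lower, and the N-acetylaspartate list 2 higher and 1 lower.

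**Figure D4:**
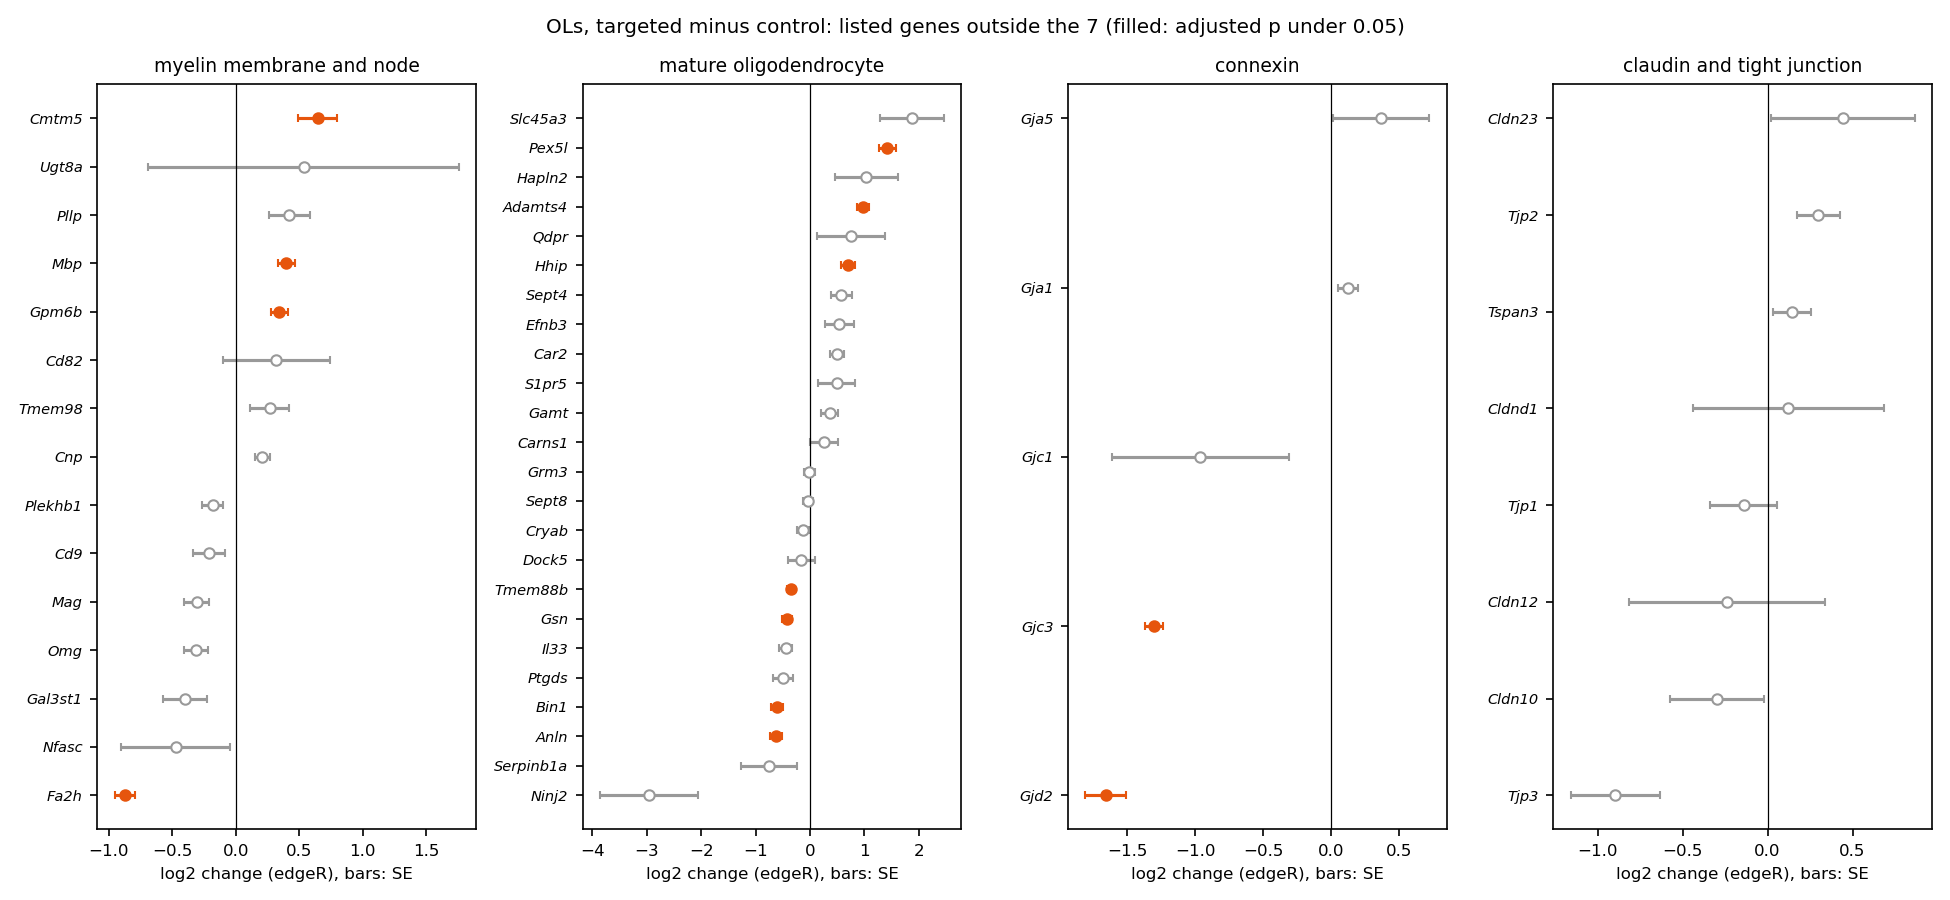
Log2 change of tested genes from 4 lists outside the 7 members (a few are not shown) in targeted minus control OLs, with standard errors; filled points have an adjusted p under 0.05. The called genes of the first 2 lists lie on both sides of 0, and Gjc3 lies at -1.30.

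In OPCs, 5 of 14 tested genes of the myelin membrane and node were higher in targeted cells and 1 was lower. Mbp itself had 5, 12 and 8 counts in controls and 33 to 60 in targeted libraries (log2 change of 2.22, SE 0.36, adjusted p = 0.0142). That call was lost without library B of guide 1 (adjusted p = 0.0611) and with transcript length as an offset (0.0767). Cnp, an enzyme of non-compact myelin, rose by 0.56 (SE 0.08, adjusted p = 0.0117; 0.0587 without library A of guide 1). Omg, encoding a glycoprotein of the myelin surface, fell by 0.88 (SE 0.11, adjusted p = 0.00533). In the same contrast 0 of 18 progenitor genes were higher and 8 lower, of 15 astrocyte markers 5 were higher and 1 lower, and of 14 neuron markers 1 was higher and 5 lower. Their part in these values was not tested.

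Markers of other cells were compared across the same libraries. Microglia markers (10 genes) summed to under 2 TPM in each group. Of 10 Schwann cell markers, which would come with Gjb1 in peripheral glia, 7 were under 1 TPM on average in guide 1 and guide 2 OLs, and Drp2 led them. They summed to 30.7 to 31.0 TPM in control and 24.3 to 39.0 TPM in targeted OLs, and 0 of 5 tested were called (1 of 6 without library B of guide 1). Fibroblast and pericyte markers, where Apod is also known, summed to 43.1 to 48.6 TPM in control and 43.4 to 53.9 TPM in targeted OLs, with 0 of 6 called (1 without that library) and Thy1 leading. Astrocyte markers (16 genes) summed to 5742 to 6215 TPM in control and 6541 to 7494 TPM in targeted OLs, with 2 of 15 higher and 0 lower; without library B of guide 1 it was 7 and 2. Of 13 tested neuron markers 0 were higher and 4 lower; without that library it was 1 and 6 of 14. Of 18 progenitor genes 1 was higher and 8 were lower in targeted OLs (2 and 12 without that library). Dll3, a Notch ligand, had a change of -1.91 (SE 0.08, adjusted p = 7.62e-06), C1ql1, a secreted C1q-like protein, -1.75 (SE 0.07, adjusted p = 7.62e-06), and the matrilin gene Matn4 -1.28 (SE 0.17, adjusted p = 0.00261). Gpr37l1, a receptor of glia, had -1.06 (SE 0.20, adjusted p = 0.0144), a call lost without control library B or C (adjusted p = 0.0933 and 0.082). The PDGF receptor gene Pdgfra was not called (0.16, SE 0.22, adjusted p = 0.779); it stood at 27.6 TPM in control and 26.8 and 31.6 TPM in targeted OLs, and at 0.906 TPM in sorted OLs. Between sorted OLs and sorted OPCs, 6 of the 18 were higher and 9 lower, and Tnr stood at 613 TPM in sorted OLs against 2.05 in sorted OPCs. The part of these cells in the members' levels was not tested.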

How the data were processed

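RNA was poly(A)-selected (NEBNext) and quantified with Salmon 0.14.1 on mm10, and the authors ran DESeq2, per the submitters' processing notes. The authors deposited estimated counts and TPM per gene for OPCs and OLs of the SOX6 experiment and TPM for sorted cells. Their deposited tables also hold log2 fold changes and adjusted p-values (p-values from DESeq2, per the labels). TPM of the listed genes summed to 77.6% to 79.6% of a full TPM total over all 23 libraries, and the sorted table has 26 gene names turned into dates.

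Here estimated counts were rounded to whole numbers and tested with edgeR 4.0.16 (R 4.3.3; TMM, filterByExpr with a count minimum of 10 and a total of 15, quasi-likelihood F test, two-sided) over all genes of a stage, with 1 coefficient per group and the mean of both guides minus control. CPM are counts scaled to an adjusted library total, the summed counts of genes past the filter times the library's TMM factor. Sorted cells were tested with limma 3.58.1 (trend) on log2(TPM + 1) for genes with at least 1 TPM in 3 libraries. Adjusted p-values are Benjamini-Hochberg over all genes tested, with a threshold of 0.05. DESeq2 1.42.0 was an alternative. Both fits were tested on simulated data. The genes and lists were chosen with earlier results of these data known. From each list, up to 4 called genes are named, taking the largest absolute changes among genes whose higher group averages 5 CPM (sorted cells: TPM) or more; other listed genes named (Myrf, Frmd4a, Pdgfra, Gpr37's levels and Mbp in OPCs) were chosen after their values were seen. Pairs of libraries of the same group in the SOX6 experiment (16) differed by a chi-square of at least 5.69 per degree of freedom, and no gene had equal TPM above 0 in 2 sorted libraries of a group; pairs across groups were not compared. Promoter windows come from RefSeq (GRCm38.p6) and gene positions from GENCODE M21. Intervals and floors on counts are not given, and errors are SD or SE over libraries. A few listed genes are not reported here; counts over lists include them.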

Additional observations from a re-analysis of the deposited data

How the results depend on the processing

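No paired analysis was possible because the columns carry letters that are not the replicate numbers of the labels. Over 42 tested values of genes named in the text and 530 pairs of such a value and an alternative (size factors, filter, tool, transcript length offset, pseudocount, centring, 1 library left out), 467 kept their direction and side of the threshold, 52 lost the call, 1 gained it and 10 turned direction. The 42 include the OPC values of Ermn and Apod, whose tests are not reported above. The log2 change in OLs ranged from 5.02 to 5.79 for Mobp, 5.09 to 6.18 for Ermn, 1.02 to 1.20 for Cldn11, 1.31 to 1.90 for Apod and 1.10 to 1.49 for Gjb1; for Aspa it ran from -0.15 (without control library B) to 0.50. The members' median share of the sorted level ranged from 12.9% to 17.1%. Counts of called genes moved more. In OPCs, 479 became 816 with DESeq2, 239 with the length offset and 149 to 550 with 1 library left out. In OLs, 870 became 1496 with DESeq2, 576 with the length offset and 350 to 2333 with 1 library left out, the highest without library B of guide 1. Between the guides, 0 became 29 with DESeq2 and 0 to 1 with 1 library left out. The cause was not tested. Small changes that were never called turned direction: in OPCs, Aspa was -0.25 with the length offset, and with 1 library left out Aspa ran from -0.066 to 0.53, Cldn11 from -0.087 to 0.52 and Opalin from -0.47 to 0.17. Between guides, with 1 library left out, Cldn11 ran from -0.0016 to 0.31, Opalin from -0.074 to 0.29 and Aspa from -0.069 to 0.37; Aspa was 0.75 with the length offset. The Ermn step of control cells, given with no test, ran from -0.28 to 1.70. With no filter, the log2 difference of Ermn between sorted OLs and sorted OPCs was 1.23, given with no test like those of the other members low in sorted OPCs. Centring sorted libraries on their median raised the share of higher calls from 43.5% to 49.2%. Depth limits Gjb1, Ermn and Mobp in OPCs, where a library held 0 to 25 counts of each.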
